A study of Mus musculus with 203 samples.

Results

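The 10 genes described here encode C-type lectin receptors of macrophages, and they were chosen by name: Mrc1, Clec7a, Clec10a, Mgl2, Clec4n, Clec4d, Clec4e, Clec4a2, Clec5a and Clec12a. All 10 were found by their gene symbol among the 25094 genes of the RNA-seq table of RAW cells and among the 16478 genes of the table of bone marrow-derived macrophages. The study asked how the corepressor subunit GPS2 and the histone demethylase KDM1A act on the response of macrophages to IL4. The values below are from RAW264.7 cells (RAW cells), a mouse macrophage line of BALB/c origin. The table of bone marrow-derived macrophages, which compares Gps2 knockout with wild-type cells, carries the authors' own comparisons and no value per library, and its values were not used here.

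The RAW experiment had 4 groups of 4 libraries. Cells that stably carried a short hairpin RNA against GFP (shGFP), delivered by lentivirus, were the control, and cells with a hairpin against Kdm1a (shKDM1A) were the knockdown, each without IL4 and with IL4 at 20 ng/ml for 6 h. All cells had therefore been infected and selected for the vector, and the knockdown rested on 1 hairpin, so an effect of KDM1A loss cannot be told apart from another effect of that hairpin or of that cell population. The authors' values are on a log2 scale, normalised between libraries by a transformation that the table does not name. It may draw the values of weakly expressed genes together, which was not tested, so sizes of difference are given on the scale of the deposited values. A library held between 17554721 and 27782568 counted tags. Without IL4, Kdm1a itself stood at 11.18 ± 0.04 (SD, n = 4) in the control and at 10.30 ± 0.05 (SD, n = 4) in the knockdown, a log2 difference of -0.88 ± 0.03 (SE, adjusted p = 5.62e-13), and with IL4 the difference was -0.79 ± 0.03. Of 10 macrophage markers 9 passed the filter on low values, Mertk being the exception, whereas 3 of 24 markers of 7 other cell types did (Zbtb46, Xcr1 and S100a8). Without IL4, 6 of those 9 macrophage markers were higher and 3 lower in shKDM1A than in shGFP cells. The shares of all genes tested were 19.7% and 18.4%. With IL4, 7 of the 9 were higher and 2 lower, beside 20.9% and 19.8% of all genes tested. The part of these markers in the results below was not tested. In bulk RNA, fewer cells expressing a gene and less RNA per cell cannot be told apart.

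C-type lectin receptors carry a lectin-like domain with which they bind sugars or other ligands on microbes, on damaged cells and on glycoproteins. Activating members reach the kinase SYK and the adaptor CARD9, either through a tyrosine motif of their own, as dectin-1 (Clec7a) does, or through the partner chains FcRgamma (Fcer1g) and DAP12 (Tyrobp). Inhibitory members carry a motif that recruits phosphatases such as SHP-1 (Ptpn6). The mannose receptor Mrc1, which takes up glycoproteins, and the galactose-binding lectins Clec10a and Mgl2 are widely used as markers of macrophages exposed to IL4.

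The 10 genes lie on 3 chromosomes. On mouse chromosome 6 (build mm9) Clec4a2 (123073334 to 123094017, plus strand), Clec4n (123179861 to 123197042, plus strand), Clec4d (123212125 to 123225286, plus strand) and Clec4e (123231807 to 123239889, minus strand) form a cluster. Clec4d and Clec4e point toward each other with 6.52 kb between them and no other gene of the table in that gap. Clec12a (129300262 to 129315321, plus strand) and Clec7a (129411609 to 129422803, minus strand) lie farther along the same chromosome, 96.3 kb apart, and Clec5a (40524897 to 40535804, minus strand) lies apart from both. Mgl2 (69943859 to 69951044) and Clec10a (69980125 to 69984338) are neighbours on the plus strand of chromosome 11, with 29.1 kb between them. Mrc1 (14151041 to 14253650, plus strand) is on chromosome 2 and holds the microRNA gene Mir511 within its bounds, with no exon base in common. None of the other 9 genes overlapped another annotated gene on either strand; the authors counted reads of both strands together.

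The promoters of 8 of the 10 genes were matched in RefSeq sequence of build GRCm38.p6, 250 bases before to 50 bases after the start site; Clec4n and Clec10a were not. Those of 5 genes are shown here because they differ in what the data below turn on: Mrc1 and Clec7a had the largest IL4 responses of the 10 genes in shGFP cells on the scale of the deposited values, Clec5a and Clec7a are the genes with a match to the STAT6-type motif, and Clec4d and Clec4e are neighbours with opposite knockdown effects. Capitals mark every match, on either strand, to TTCNNNNGAA, the spacing bound by the IL4-activated factor STAT6, and to GAGGAA, which reads as TTCCTC on the other strand, the core bound by the macrophage factor PU.1. The windows are chr2:14229164-14229463 (plus strand) for Mrc1, chr6:129472730-129473029 (minus strand) for the first of a pair of Clec7a entries, chr6:40585756-40586055 (minus strand) for Clec5a, chr6:123261857-123262156 (plus strand) for Clec4d and chr6:123289822-123290121 (minus strand) for Clec4e, each written 5′ to 3′ on the strand of its gene.
Mrc1: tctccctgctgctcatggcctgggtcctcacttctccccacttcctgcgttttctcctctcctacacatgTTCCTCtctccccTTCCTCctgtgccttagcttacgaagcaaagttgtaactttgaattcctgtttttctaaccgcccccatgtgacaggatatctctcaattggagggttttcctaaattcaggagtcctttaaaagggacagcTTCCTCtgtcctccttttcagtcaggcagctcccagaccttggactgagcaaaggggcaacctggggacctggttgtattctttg
Clec7a: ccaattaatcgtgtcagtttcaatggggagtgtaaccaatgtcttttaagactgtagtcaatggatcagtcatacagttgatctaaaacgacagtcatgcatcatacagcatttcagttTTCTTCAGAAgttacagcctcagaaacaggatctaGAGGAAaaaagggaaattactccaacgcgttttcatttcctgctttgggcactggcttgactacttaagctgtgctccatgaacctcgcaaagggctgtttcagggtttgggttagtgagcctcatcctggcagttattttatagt
Clec5a: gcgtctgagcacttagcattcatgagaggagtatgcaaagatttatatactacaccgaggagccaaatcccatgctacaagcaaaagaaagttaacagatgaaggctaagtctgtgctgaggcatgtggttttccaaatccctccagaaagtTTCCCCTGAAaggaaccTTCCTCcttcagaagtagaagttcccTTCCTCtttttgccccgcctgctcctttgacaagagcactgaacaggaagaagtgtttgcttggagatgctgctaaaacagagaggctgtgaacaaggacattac
Clec4d: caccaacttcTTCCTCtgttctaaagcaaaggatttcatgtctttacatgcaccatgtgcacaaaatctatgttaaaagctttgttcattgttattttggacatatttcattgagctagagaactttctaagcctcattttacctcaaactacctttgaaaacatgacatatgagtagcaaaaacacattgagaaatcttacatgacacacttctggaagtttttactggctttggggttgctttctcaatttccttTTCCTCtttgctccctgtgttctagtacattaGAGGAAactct
Clec4e: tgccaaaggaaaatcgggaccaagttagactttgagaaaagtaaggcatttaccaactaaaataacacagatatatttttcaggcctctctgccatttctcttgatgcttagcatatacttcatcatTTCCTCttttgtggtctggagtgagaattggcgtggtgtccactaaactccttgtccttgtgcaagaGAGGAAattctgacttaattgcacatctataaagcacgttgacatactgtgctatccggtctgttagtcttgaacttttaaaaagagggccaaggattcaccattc

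TTCNNNNGAA occurred in 2 of the 8 genes and in 6.95% of 32851 mouse promoters of the same length. Counted from the start site, it lay at position -98 of Clec5a and at position -131 of the Clec7a entry shown. From the start of the other Clec7a entry the same match lay at -125. GAGGAA occurred in 7 of the 8, the exception being Clec4a2, and in 28.3% of all promoters, and no match of it overlapped one of TTCNNNNGAA in the sequences shown. The AP-1 motif TGANTCA occurred in Clec4a2 and Clec12a and in 7.81% of all promoters. These are matches of letters in a short window and say nothing of binding.

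Levels of the 10 genes in shGFP cells without IL4 were compared per length, as the mean log2 value less the log2 of the exon length in kb. They spanned 8.63 log2 units. Clec4d (11.09), Clec5a (10.26), Clec12a (10.09) and Clec4e (9.49) stood above the median of all genes tested, 7.62, with Clec4d at or above 94.0% of them. Clec7a (7.18), Clec4a2 (6.81) and Clec10a (5.98) stood below it. Clec4n (3.87), Mrc1 (3.11) and Mgl2 (2.46) were the lowest. SDs over the 4 libraries of a gene were at most 0.11, and the smallest gap between neighbours in the order, 0.17 between Clec5a and Clec12a, was larger than the SD of either. With IL4 the order was the same but for Mrc1, which passed Clec4n.

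**Figure D1:**
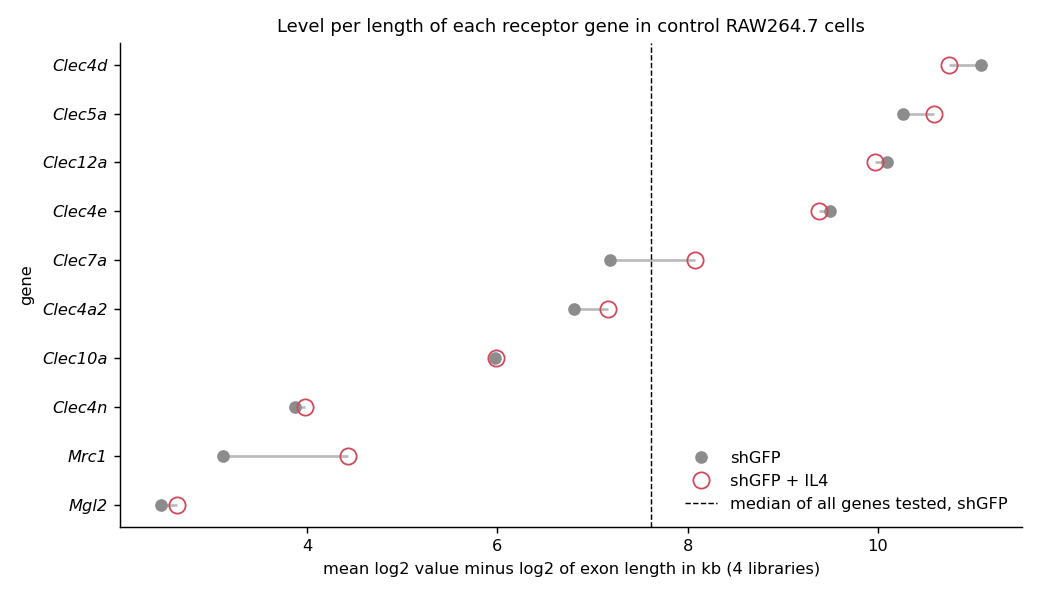
Mean log2 value per library less the log2 of exon length in kb (x axis) for each of the 10 genes (y axis) in shGFP cells without IL4 (filled) and with IL4 (open), 4 libraries each. Clec4d, Clec5a, Clec12a and Clec4e lie to the right of the median of all genes tested in both conditions, and Clec7a only with IL4. Mrc1 and Clec7a show the longest shifts with IL4.

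In shGFP cells IL4 raised Mrc1 and Clec7a, which had the largest log2 differences of the 10 receptor genes on the scale of the deposited values. It also raised the inhibitory receptor Clec4a2, the DAP12-coupled receptor Clec5a and the weakly expressed Mgl2 and Clec4n, and it lowered Clec4d, Clec4e and Clec12a. In all, 6 of the 10 genes rose and 3 fell at an adjusted p under 0.05 (limma, Benjamini-Hochberg over 12905 genes), while 13.1% of all genes tested rose and 13.7% fell. The median difference of the 10 genes was 0.14 on the log2 scale, beside -0.00049 for all genes tested. In shKDM1A cells 6 rose and 1 fell, beside 13.6% and 13.5% of all genes, with a median of 0.13 beside -0.0025. Of the 9 macrophage markers tested, IL4 raised 2 and lowered 3 in shGFP cells, among them Adgre1 (1.24) and Cd14 (-0.93), and raised 3 and lowered 3 in shKDM1A cells; their part in the receptor responses was not tested.

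The mannose receptor Mrc1 stood at 5.55, 5.51, 5.51 and 5.49 in shGFP cells without IL4 and at 6.82, 6.91, 6.84 and 6.76 with IL4. In shKDM1A cells it stood at 5.49, 5.50, 5.53 and 5.47 without IL4 and at 5.95, 5.94, 6.07 and 6.03 with IL4. The basal groups overlapped, whereas the IL4-treated groups were apart from them and from each other, with the knockdown cells between the basal level and that of treated control cells. IL4 thus raised Mrc1 by 1.32 ± 0.03 (SE) on the log2 scale in shGFP cells (adjusted p = 3.07e-14, limma), and by 0.50 ± 0.03 in shKDM1A cells (adjusted p = 5.33e-09). The response in knockdown cells differed by -0.82 ± 0.05 (SE, adjusted p of the interaction = 3.57e-08). This was the largest difference in response among the 10 genes, and the only one of the 10 in the downward direction that passed the test. Knockdown cells differed from control cells by -0.83 ± 0.03 with IL4 (adjusted p = 5.27e-12), and by -0.017 without it, with a 95% interval of -0.09 to 0.05. The paper reports lower Mrc1 by RT-qPCR in unstimulated knockdown cells. Mrc1 was weakly expressed here, so the interval without IL4 does not show that its basal level was unchanged.

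Clec7a encodes dectin-1, the receptor for fungal beta-glucan. Its values were 8.42, 8.37, 8.26 and 8.44 in shGFP cells without IL4 and 9.15, 9.19, 9.33 and 9.37 with IL4. In shKDM1A cells they were 8.35, 8.42, 8.43 and 8.33 without IL4 and 9.50, 9.48, 9.49 and 9.56 with IL4. Treated libraries lay above untreated ones in both cell populations, and the treated knockdown libraries lay above the treated control libraries. The IL4 response was 0.89 ± 0.05 (SE) on the log2 scale in shGFP cells (adjusted p = 3.67e-10) and 1.12 ± 0.05 in shKDM1A cells (adjusted p = 2.61e-11). With IL4, Clec7a was higher in knockdown than in control cells by 0.25 ± 0.05 (adjusted p = 5.34e-04), opposite in direction to Mrc1. The difference between the responses, 0.23 ± 0.07, missed the threshold with an adjusted p of 0.0506 and a 95% interval of 0.09 to 0.37. It passed without shGFP replicate 3 (0.27, adjusted p = 0.0199), without shGFP with IL4 replicate 3 (0.25, adjusted p = 0.0497) or replicate 4 (0.27, adjusted p = 0.0261), and without shKDM1A with IL4 replicate 2 (0.24, adjusted p = 0.0478).

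**Figure D2:**
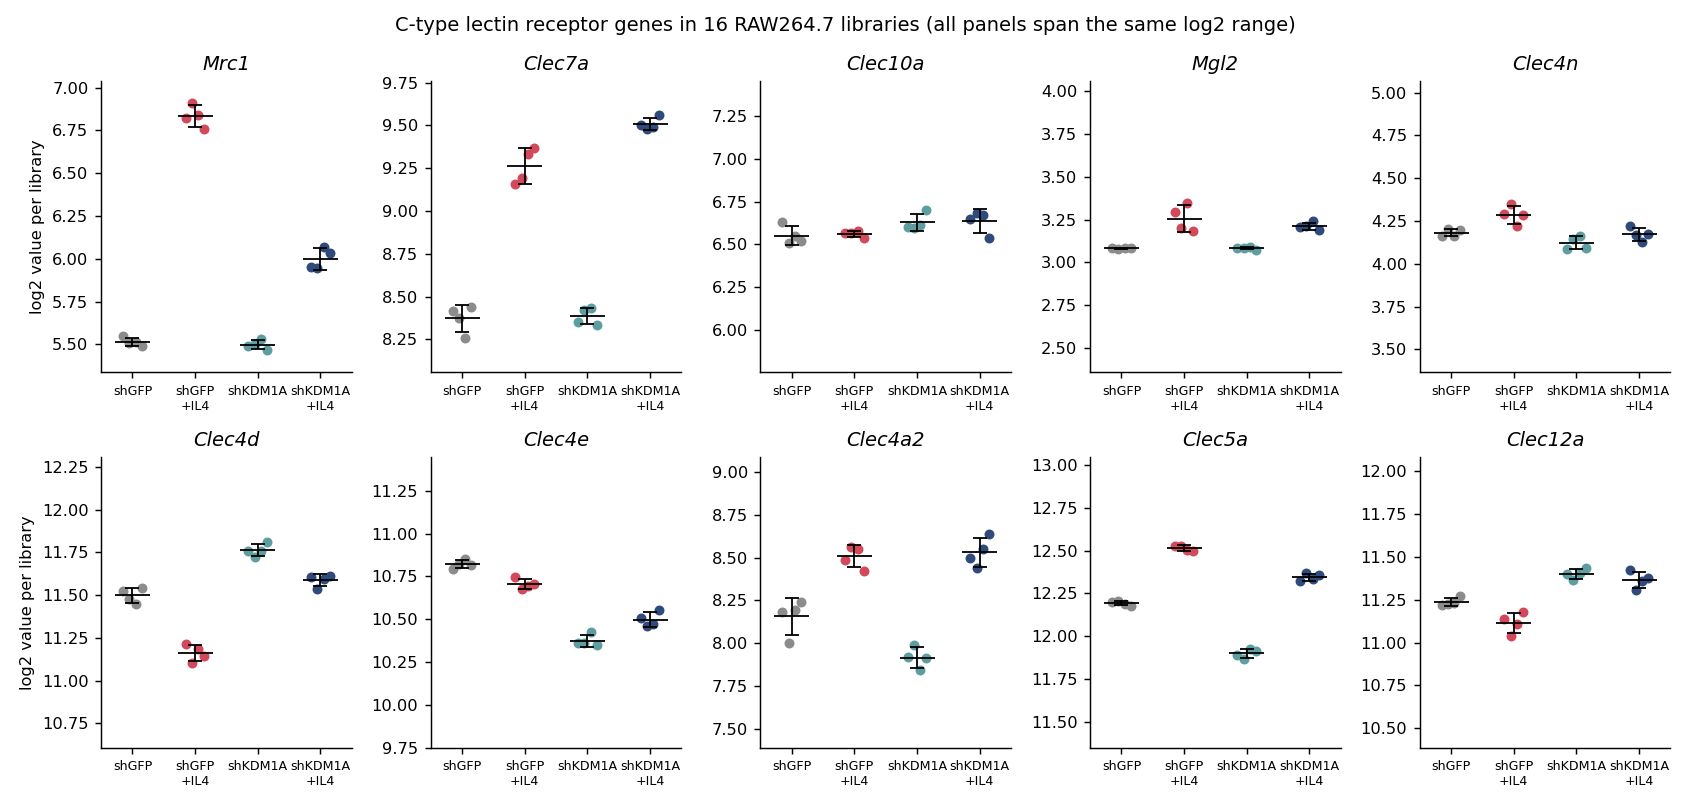
Log2 value of each of the 10 genes (y axes, all of the same span) in the 16 libraries of RAW cells, by group (x axes); points are libraries, lines the mean and bars the SD of 4 libraries. Mrc1 with IL4 sits between 6.76 and 6.91 in shGFP cells and between 5.94 and 6.07 in shKDM1A cells, while Clec7a with IL4 sits higher in shKDM1A cells.

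Of the galactose-type lectins, Mgl2 rose with IL4 in both cell populations. Clec10a ranged from 6.51 to 6.63 in shGFP cells without IL4 and from 6.54 to 6.58 with IL4, and in shKDM1A cells from 6.60 to 6.70 and 6.54 to 6.69. It was not called in any comparison, and the 95% interval of its IL4 response was -0.06 to 0.08 in shGFP cells and -0.07 to 0.08 in shKDM1A cells. Its knockdown effect was 0.08 ± 0.03 without IL4 (adjusted p = 0.0894) and 0.07 ± 0.03 with IL4 (adjusted p = 0.0994). The former passed without shGFP replicate 1 (0.10, adjusted p = 0.0284) or shKDM1A with IL4 replicate 4 (0.077, adjusted p = 0.0405), and the latter passed without shKDM1A with IL4 replicate 4 (0.11, adjusted p = 0.0108). Mgl2 stood at 3.08 ± 0.0025 (SD, n = 4) in shGFP cells without IL4 and at 3.26 ± 0.08 with IL4. Its IL4 response was 0.17 ± 0.03 in shGFP cells (adjusted p = 2.12e-04) and 0.13 ± 0.03 in shKDM1A cells (adjusted p = 0.00261). The responses of Mgl2 differed by -0.044 ± 0.04, which was not called; at so low a level, close values do not show that the responses were alike. The longest coding sequences of Mgl2 and Clec10a in the mm9 annotation were 76.3% identical and shared a run of 183 bases, the longest among the 10 genes, so reads within that run cannot be assigned to either.

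Clec4n (dectin-2), Clec4d (MCL) and Clec4e (Mincle) signal through FcRgamma; dectin-2 binds mannans of fungi, and MCL and Mincle bind mycobacterial glycolipids and can pair with each other. IL4 lowered Clec4d in both cell populations, and Clec4e moved in opposite directions in the 2 populations. Clec4d read 11.53, 11.48, 11.45 and 11.54 in shGFP cells without IL4 and 11.21, 11.11, 11.18 and 11.14 with IL4, and 11.76, 11.72, 11.76 and 11.81 against 11.61, 11.53, 11.60 and 11.61 in shKDM1A cells. Each treated group lay below its untreated group. The IL4 response of Clec4d was -0.34 ± 0.03 (SE) in shGFP cells (adjusted p = 1.44e-07) and -0.17 ± 0.03 in shKDM1A cells (adjusted p = 2.16e-04).

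Clec4e read 10.80, 10.82, 10.85 and 10.81 in shGFP cells without IL4 and 10.75, 10.68, 10.69 and 10.71 with IL4, and 10.36, 10.36, 10.43 and 10.35 against 10.51, 10.46, 10.47 and 10.55 in shKDM1A cells. Treated control libraries lay below untreated ones, treated knockdown libraries above untreated ones, and all 8 knockdown libraries lay below all 8 control libraries. IL4 changed Clec4e by -0.12 ± 0.02 (SE) in shGFP cells (adjusted p = 0.0024) and by 0.12 ± 0.02 in shKDM1A cells (adjusted p = 0.00133). The difference between these responses was 0.24 ± 0.04 (adjusted p = 7.81e-04). For Clec4d the difference was 0.16 ± 0.04 (adjusted p = 0.0269). That call on Clec4d was lost when any 1 of 8 libraries was left out, namely replicate 1 or 4 of shGFP cells, replicate 2 or 4 of shGFP cells with IL4, replicate 2 or 3 of shKDM1A cells and replicate 1 or 3 of shKDM1A cells with IL4 (0.14 to 0.16, adjusted p from 0.0504 to 0.0587).

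Clec4n ranged from 4.16 to 4.20 in shGFP cells without IL4 and from 4.22 to 4.35 with IL4, and from 4.09 to 4.16 and 4.13 to 4.22 in shKDM1A cells. It rose with IL4 in shGFP cells by 0.10 ± 0.03 (adjusted p = 0.01). In shKDM1A cells its difference was 0.05 ± 0.03 (95% interval -0.0079 to 0.11), and the responses differed by -0.05 ± 0.04, within an interval of -0.14 to 0.029.

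Clec5a (MDL-1) signals through DAP12 and DAP10. It stood at 12.20, 12.20, 12.19 and 12.18 in shGFP cells without IL4 and at 12.53, 12.53, 12.50 and 12.50 with IL4. In shKDM1A cells it stood at 11.89, 11.87, 11.93 and 11.91 and at 12.32, 12.37, 12.34 and 12.36. The 4 groups did not overlap, with untreated knockdown cells lowest and treated control cells highest. IL4 raised it by 0.32 ± 0.02 (SE) in shGFP cells (adjusted p = 6.98e-10) and by 0.45 ± 0.02 in shKDM1A cells (adjusted p = 1.65e-11), a difference of 0.12 ± 0.03 (adjusted p = 0.00986).

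Of the inhibitory receptors, Clec4a2 (DCIR) rose with IL4 and Clec12a (MICL), which senses uric acid crystals and dying cells, fell in control cells. Clec4a2 stood at 8.18, 8.00, 8.20 and 8.24 in shGFP cells without IL4 and at 8.49, 8.56, 8.55 and 8.42 with IL4. In shKDM1A cells it stood at 7.92, 7.99, 7.84 and 7.91 and at 8.49, 8.44, 8.55 and 8.64. The basal level was lower in knockdown cells, and the treated groups overlapped. Its IL4 response was 0.35 ± 0.05 (SE) in shGFP cells (adjusted p = 7.93e-05) and 0.61 ± 0.05 in shKDM1A cells (adjusted p = 1.56e-07). The difference, 0.26 ± 0.07, had an adjusted p of 0.0437. It was 0.0687 with a replicate block, 0.0827 with no filter, and between 0.0516 and 0.0927 (differences of 0.23 to 0.28) without 1 of 13 libraries, the exceptions being replicate 2 of shGFP cells, of shKDM1A cells and of shKDM1A cells with IL4. Clec4a2 shares runs of 163 coding bases with Clec4a4 and of 82 with Clec4b1, and reads within those runs cannot be assigned to 1 gene. Neither Clec4a4 nor Clec4b1 passed the filter. Of relatives that did, Clec4a3 shares a run of 34 bases with Clec4a2 and Clec4a1 a run of 26. Whether the counts of Clec4a2 hold reads of its relatives was not tested.

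Clec12a ranged from 11.22 to 11.27 in shGFP cells without IL4 and from 11.04 to 11.18 with IL4, and from 11.37 to 11.43 and 11.31 to 11.42 in shKDM1A cells. Its response in shGFP cells was -0.12 ± 0.03 (SE, adjusted p = 0.00499). In shKDM1A cells it was -0.034 ± 0.03 (95% interval -0.10 to 0.028), and the difference between the responses, 0.09 ± 0.04, was not called (adjusted p = 0.22).

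**Figure D3:**
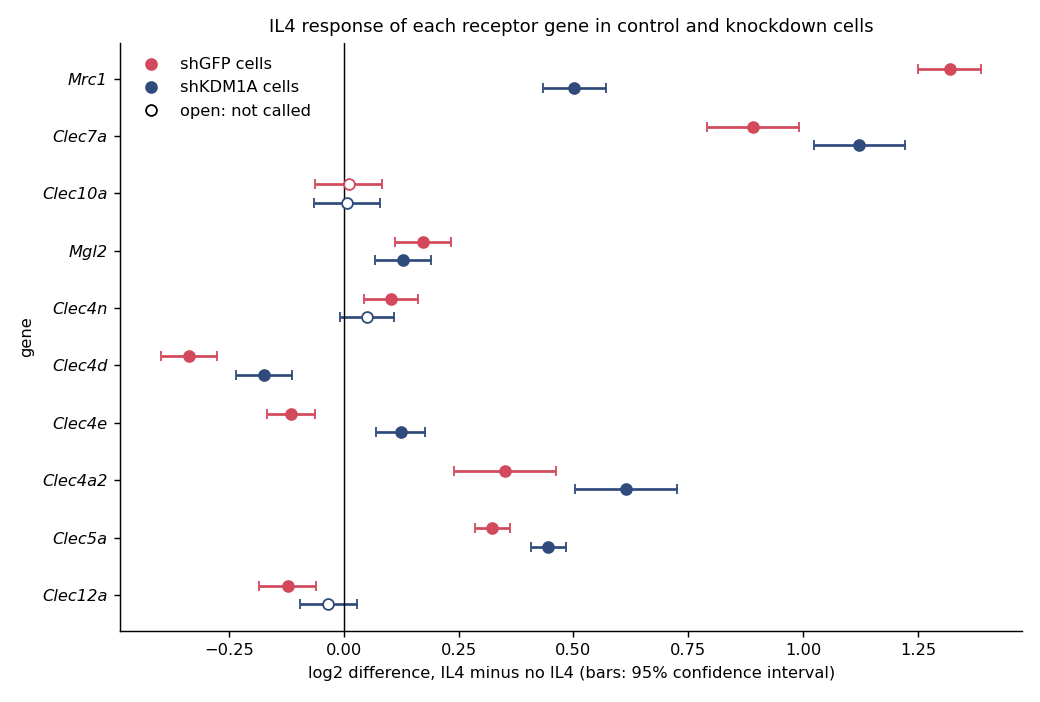
Log2 difference between IL4-treated and untreated RAW cells (x axis) for each of the 10 genes (y axis) in shGFP and shKDM1A cells; bars are 95% confidence intervals from limma over 16 libraries and open points missed an adjusted p of 0.05. Mrc1 falls from 1.32 in shGFP to 0.50 in shKDM1A cells, and Clec4e changes sign.

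Over the 10 genes, 4 IL4 responses were shifted upward in knockdown cells (Clec4d, Clec4e, Clec4a2 and Clec5a) and 1 downward (Mrc1), beside 3.56% and 2.57% of all genes tested. Without 1 library the upward count was 2 to 5, while the downward call on Mrc1 was made each time. The upward count was 2 (Clec4e and Clec5a) without any 1 of replicate 1 or 4 of shGFP cells, replicate 2 of shGFP cells with IL4, replicate 3 of shKDM1A cells or replicate 1 or 3 of shKDM1A cells with IL4. The median shift of the 10 was 0.11 on the log2 scale, beside -0.0015 for all genes. For Clec4d the upward shift was a smaller decrease, for Clec4e a change from a decrease to an increase, and for Clec4a2 and Clec5a a larger increase. Of the 9 macrophage markers, 3 were shifted upward (Cd14 by 0.48, Lyz2 by 0.42 and Fcgr1 by 0.27) and 2 downward (Adgre1 at -0.33 and Itgam at -0.16), and their part in these shifts was not tested. These comparisons share the libraries of the single-population comparisons above and are not independent of them.

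Without IL4, the knockdown changed 5 of the 10 genes. Clec4d and Clec12a were higher in shKDM1A than in shGFP cells and Clec4e, Clec4a2 and Clec5a were lower, 2 higher and 3 lower in all, beside 19.7% and 18.4% of all genes tested. The differences were 0.26 ± 0.03 (SE) for Clec4d and 0.16 ± 0.03 for Clec12a. They were -0.45 ± 0.02 for Clec4e, -0.24 ± 0.05 for Clec4a2 and -0.29 ± 0.02 for Clec5a. Mrc1 and Clec7a were not among them, and for Clec7a the 95% interval was -0.09 to 0.11. Mgl2 and Clec4n were not called either. With Mrc1 they had the lowest levels per length of the 10 genes. At such levels a missing call does not show that the knockdown had no effect.

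With IL4, 3 genes were higher (Clec7a, Clec4d and Clec12a) and 4 lower (Mrc1, Clec4n, Clec4e and Clec5a) in knockdown cells, beside 20.9% and 19.8% of all genes tested. Clec4d stood 0.43 ± 0.03 (SE) and Clec12a 0.25 ± 0.03 above control cells. Clec4e stood at -0.21 ± 0.02, Clec5a at -0.17 ± 0.02 and Clec4n at -0.11 ± 0.03 relative to them. For Clec4a2 the difference was 0.024 with a 95% interval of -0.09 to 0.13, and that of Mgl2 was not called. Medians over the 10 genes were -0.0086 without IL4 and -0.010 with it, beside -0.0027 and -0.0024 for all genes tested.

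**Figure D4:**
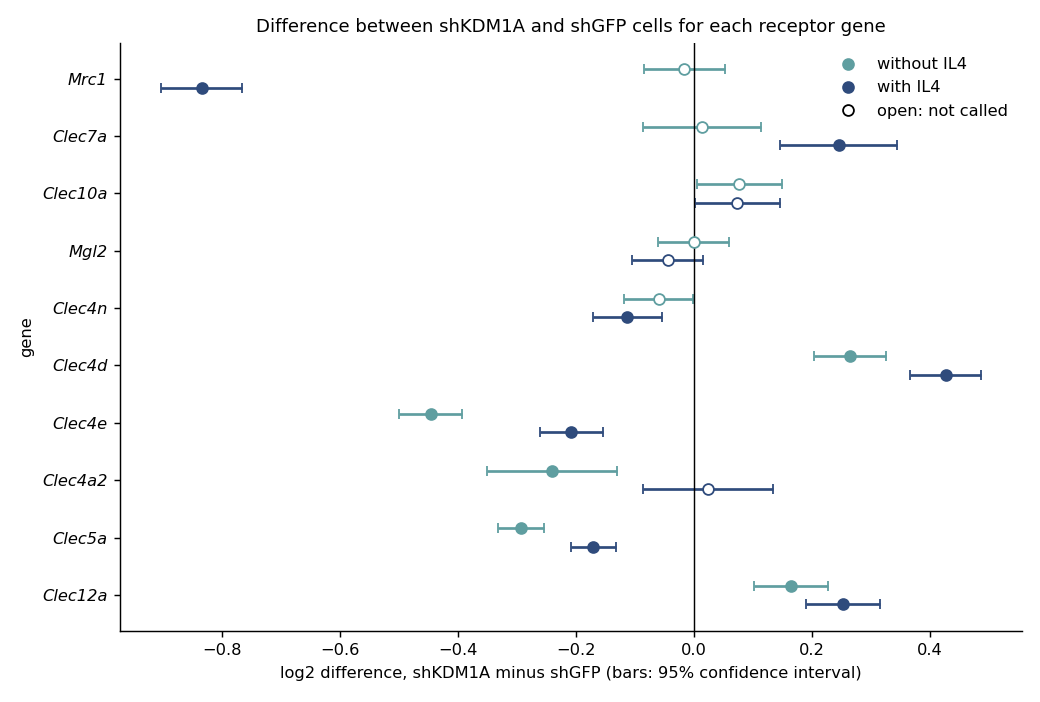
Log2 difference between shKDM1A and shGFP cells (x axis) for each of the 10 genes (y axis) without and with IL4; bars are 95% confidence intervals and open points missed an adjusted p of 0.05. Mrc1 lies at -0.017 without IL4 and at -0.83 with it, and Clec4d lies to the right and Clec4e to the left of 0 in both conditions.

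The partner genes of the receptor pair MCL and Mincle, whose gene ends lie 6.52 kb apart, thus differed in opposite directions between knockdown and control cells in both conditions. Without IL4 the pair stood at 0.26 (Clec4d) and -0.45 (Clec4e), and their 95% intervals were 0.20 to 0.32 and -0.50 to -0.39. Of the others in the cluster, Clec4a2 was lower, at -0.24 (adjusted p = 0.00156), and Clec4n, 15.1 kb from Clec4d, stood at -0.06 and missed the threshold (adjusted p = 0.0997).

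**Figure D5:**
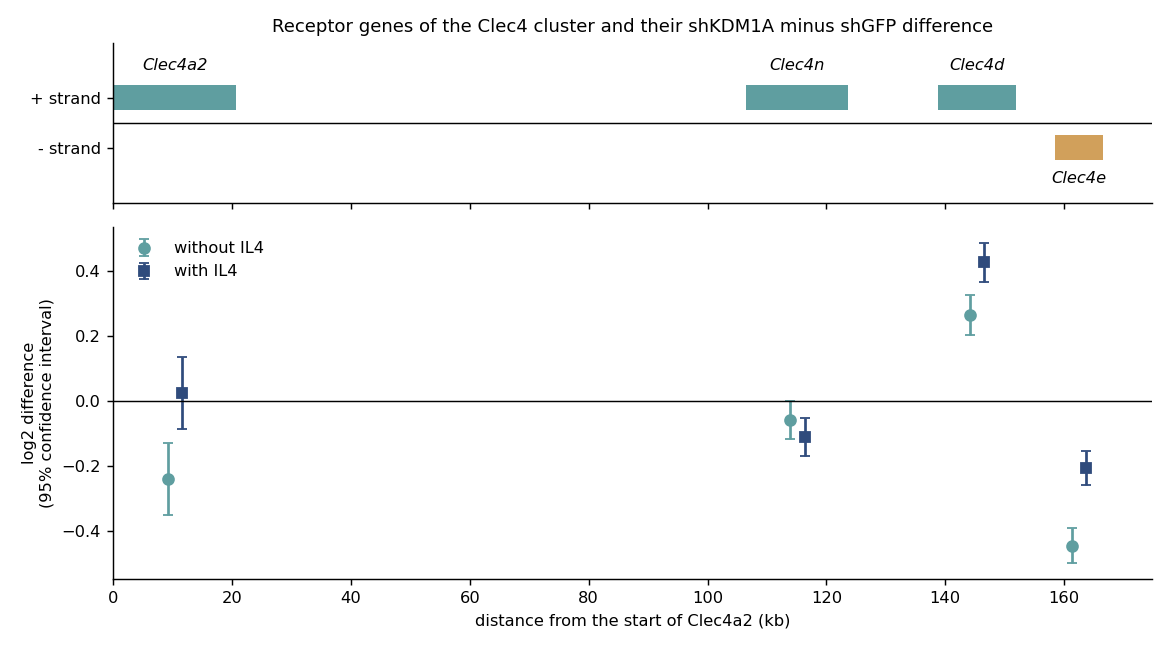
Upper panel, positions of Clec4a2, Clec4n, Clec4d and Clec4e by strand against the distance from the start of Clec4a2 in kb; lower panel, log2 difference between shKDM1A and shGFP cells for each, without IL4 (circles) and with IL4 (squares), with 95% confidence intervals. Clec4d lies above 0 and its neighbour Clec4e below 0 in either condition.

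Of 31 genes of the signalling route below these receptors, 30 were tested. Without IL4, 5 were higher and 13 lower in knockdown cells, beside 19.7% and 18.4% of all genes tested, with a median difference of -0.061 beside -0.0027 for all genes. The largest called differences were 0.43 ± 0.03 (SE) for the transcription factor Nfatc1, -0.40 ± 0.02 for the kinase Syk and -0.25 ± 0.02 for the lipid phosphatase Inpp5d (SHIP-1). With IL4, 6 were higher and 14 lower (20.9% and 19.8% of all genes), led by Syk at -0.48 ± 0.02, Nfatc1 at 0.25 ± 0.03 and Inpp5d at -0.24 ± 0.02. The IL4 response was divided evenly, with 9 higher and 8 lower in shGFP cells (13.1% and 13.7% of all genes) and 8 and 9 in shKDM1A cells (13.6% and 13.5%). It was led in shGFP cells by Nfatc1 (0.64 ± 0.03), Nfkb1 (0.33 ± 0.02) and Prkcd (0.32 ± 0.02), and in shKDM1A cells by the same genes, at 0.46, 0.52 and 0.31. The response in knockdown cells was higher for 1 of the 30, Nfkb1 (0.19 ± 0.03), and lower for 1, Nfatc1 (-0.18 ± 0.04), beside 3.56% and 2.57% of all genes.

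Of 55 other C-type lectin genes, 16 passed the filter. IL4 raised 6 and lowered 2 of the 16 in shGFP cells (13.1% and 13.7% of all genes tested) and raised 5 and lowered 1 in shKDM1A cells (13.6% and 13.5%). The largest responses in shGFP cells were those of Clec4a3 (0.45 ± 0.04, SE), a relative of Clec4a2, of the oxidised lipoprotein receptor Olr1 (0.43 ± 0.04) and of the hyaluronan receptor Layn (-0.27 ± 0.06), and in shKDM1A cells those of Layn (-0.53), Clec4a3 (0.45) and Olr1 (0.34). The knockdown raised 3 and lowered 4 without IL4, shares near the 19.7% and 18.4% of all genes, led by Layn (1.70 ± 0.06), Clec4a3 (-0.50 ± 0.04) and Cd302 (-0.28 ± 0.04). With IL4 it raised 4 and lowered 4, beside 20.9% and 19.8%, led by Layn (1.45), Clec4a3 (-0.49) and Colec12 (0.25). The IL4 responses of 3 of the 16 were higher in knockdown cells and of 0 lower (3.56% and 2.57% of all genes), those of Cd302 (0.26 ± 0.05), Cd207 (0.19 ± 0.03) and Colec12 (0.15 ± 0.03). Clec4a3 was lower in knockdown cells in both conditions, whereas its relative Clec4a2 stood at -0.24 without IL4 and at 0.024 with it.

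Among 36 genes known as IL4 targets, 22 were tested, of which IL4 raised 16 and lowered 1 in shGFP cells (13.1% and 13.7% of all genes tested) and raised 12 and lowered 1 in shKDM1A cells (13.6% and 13.5%). The largest responses were those of Ptgs1 (1.77 and 1.08), the scavenger receptor Cd36 (1.73 and 1.40) and Egr2 (0.91 and 0.86) in shGFP and shKDM1A cells. Their IL4 response was smaller in knockdown cells for 6 of the 22 and larger for 1, beside 2.57% and 3.56% of all genes, led by Ptgs1 (-0.69 ± 0.05), Socs1 (-0.33 ± 0.07) and Cd36 (-0.33 ± 0.03), beside -0.82 for Mrc1.

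The 3 receptor genes with the largest SD over the 16 libraries were Mrc1 (0.56), Clec7a (0.53) and Clec4a2 (0.27). The genes other than these 10 whose values followed Mrc1 most closely over the 16 libraries were the complement genes C3 (Pearson r = 0.979) and C1qa (0.975) and the cytokine signalling inhibitor Cish (0.973). C1qa (group means of 3.20 to 3.45) and Cish (3.96 to 4.34) were also weakly expressed. For Clec7a they were Casp6 (0.989), the galactosyltransferase B4galt1 (0.987) and the calcineurin regulator Rcan1 (0.986). For Clec4a2 they were Id3 (0.955), the protease Ctsc (0.955) and the chemokine Cxcl16 (0.954). The 16 points come from 4 groups and were picked from all genes tested, so these values describe the group means and were not tested.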

How the data were processed

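RNA was sequenced from 16 libraries of RAW cells in 4 groups, assigned from the sample titles; the other assays of the series were not analysed here. Per the paper's methods and the submitters' processing notes, the authors aligned reads to mm9 (the labels name HISAT2 and Bowtie2, with no versions), counted exon reads of both strands with HOMER, 1 row per gene, and normalised with DESeq2. The deposited values are log2 values per library, made by the authors; the transformation is not named in the table, and the values are not scaled to length. Another 9 columns of that table and the 12 value columns of the bone marrow-derived macrophage table hold the authors' own fold changes with their raw and adjusted p-values and were not used, so no comparison of bone marrow-derived macrophages was run.

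The 12905 genes that reached 1 in 4 or more libraries were fitted with limma 3.58.1 in R 4.3.3 (lmFit and eBayes, group means in 1 model, Benjamini-Hochberg adjustment per contrast over all genes tested, threshold 0.05), which was tested on simulated data. Differences are in log2 units, as mean ± SE from the model; levels are mean ± SD, n = 4. The study's methods state that all its experiments used biological replicates; how the 4 RAW libraries of a group were kept apart is not given, and p-values measure the spread between these libraries. No counting interval can be given without counts. All 10 genes were named in every comparison; of other lists, counts and the 3 called genes with the largest difference were named, and for the 3 receptor genes with the largest SD the 3 genes most correlated with each. The genes and lists were chosen with earlier results of these data known. Alternatives were the filter, the scaling between libraries, a trended prior variance, a replicate block, the groups in the model and leaving out each library. Promoters are RefSeq sequence of GRCm38.p6, and coding sequences are from the GENCODE annotation of mm9.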

Additional observations from a re-analysis of the deposited data

Results flagged for a closer look

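Mrc1 had an IL4 response in knockdown cells that differed from that in control cells by -0.82 on the log2 scale, which a test of the difference itself called. The same test called differences of 0.24 for Clec4e, 0.26 for Clec4a2, 0.16 for Clec4d and 0.12 for Clec5a. The calls on Mrc1, Clec4e and Clec5a were made under every alternative tried, whereas that on Clec4a2 was lost with a replicate block (adjusted p = 0.0687), with no filter (0.0827) and without any 1 of 13 libraries, and that on Clec4d without any 1 of 8. Clec4e was the gene among them whose response also changed direction, from lower in 4 of 4 treated control libraries to higher in 4 of 4 treated knockdown libraries.

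Clec10a stood at 6.70 in shKDM1A replicate 4 without IL4, apart from the other 3 libraries of its group at 6.60 to 6.61. It was 1 of 40 groups of 4 values so examined, and chance flags about 1 in 20.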

How the results depend on the processing

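The counts of called genes stayed within 1.5 times the reported ones under every alternative tried, left-out libraries included (530 to 1104 genes for the difference in IL4 response), and under those alternatives no called difference of a receptor gene changed direction or moved by over 1.5 times. With a replicate block, 732 genes had a called difference in IL4 response, beside 791, and 3430, 3459, 4882 and 5212 genes were called for IL4 in shGFP cells, IL4 in shKDM1A cells and the knockdown without and with IL4, beside 3466, 3497, 4927 and 5255. With quantile normalization, 43.2% of the genes called for the knockdown without IL4 were higher, beside 51.7%. With IL4 the share was 45.0%, beside 51.3%, so that lower calls outnumbered higher ones in both conditions. With median centring the knockdown shares were 51.8% without IL4 and 56.7% with IL4. Under that scaling the share was 56.5% for IL4 in shKDM1A cells, beside 50.1%. For the difference in response it was 66.2%, beside 58.0%. The replicate block changed 1 call of a receptor gene, the difference in response of Clec4a2. Deviations of same-numbered libraries from their group means correlated with r from -0.34 to 0.27 (24 pairs, median 0.045), 3 of them over 0.1. Pairs of other numbers ran from -0.33 to 0.36 (72 pairs, median -0.0096), 9 of them over 0.1. These values do not settle whether the numbers pair the samples.

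The difference in response of Clec7a was called with the stricter filter (adjusted p = 0.0389), with median centring (0.24, adjusted p = 0.0450) and with a trended prior variance (adjusted p = 0.0323), and the knockdown effect on Clec4n without IL4 was called with quantile normalization (-0.077, adjusted p = 0.0377). Differences that were not called and lay near 0 changed sign: the difference in response of Clec10a with median centring (0.0064) and quantile normalization (0.00105), and the knockdown effect on Mgl2 without IL4 with quantile normalization (0.0055). Leaving out 1 library at a time did the same for the IL4 response of Clec10a in shGFP cells (-0.0044 to 0.036) and in shKDM1A cells (-0.0098 to 0.040), its difference in response (-0.029 to 0.030), the knockdown effect without IL4 on Clec7a (-0.025 to 0.036) and Mgl2 (-0.0025 to 0.0023), and that with IL4 on Clec4a2 (-0.012 to 0.054). The cause was not tested. The stricter filter left no value for Mgl2 and Clec4n.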
